A study of Mus musculus with 16 samples.

Results

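The 30 genes described here carry out or control fatty acid oxidation and ketone body synthesis, and they were followed in the liver of 16 mouse offspring. They were chosen by name, with earlier results of these data known, so their shares are descriptions and not a test. There are 11 enzymes of mitochondrial beta oxidation, 5 genes of fatty acid uptake, activation and the carnitine shuttle, and 3 of the electron transfer flavoprotein system. The others are 4 of peroxisomal beta oxidation, 2 of ketone body metabolism, and 5 genes around the nuclear receptor PPAR-alpha. All 30 of the 30 were found on the array, with 42 probes, among 18707 genes tested. The probe with the brightest liver signal stood for each gene, and for every member it exceeded background clearly (the scanner's well-above-background flag) in the liver channel of all 16 arrays. Hadh is listed in the files under the older name Hadhsc, and Eci1 under Dci.

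The study asked whether liver gene expression in young mice depends on what their dams inhaled in pregnancy. The dams were C57BL/6BomTac mice, and UV-Titan is a nano titanium dioxide with a coated surface. Dams breathed either clean filtered air or about 42 mg/m3 of UV-Titan for 1 hour daily from gestation day 8 to 18. Offspring of filtered-air dams were 3 females and 4 males, called controls, and 5 females and 4 males came from UV-Titan dams, with 1 array per animal. The offspring of this study were taken as newborns on postnatal day 2 or at weaning on days 23 to 24, and the labels give neither the age nor the litter of any of these 16 animals, so p-values measure the spread between these animals only.

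Each array compared the liver with a universal mouse reference RNA in the other dye. The label fields and the labelling protocol name opposite dyes, and red was read as liver because the median of the 14 measured hepatocyte markers was 4.42 to 5.69 log2 brighter in red on each of the 16 arrays. A log2 ratio is therefore the liver signal over the reference signal of the same probe, and the liver channel was also analysed alone. The share of spots well above background in the liver channel was 57.7% to 67.1%, lowest on female control replicate 35. Array weights in limma were lowest for female control replicates 35 (0.35) and 25 (0.56). In the scaled alternative, the log2 ratios of replicate 25 were stretched by a slope of 1.30 on the unscaled ratios, against 0.91 to 1.01 on the other 15 arrays. The median of the members in females is therefore given with and without each of these arrays. Precision is limited by the few arrays in each group.

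In the liver, long-chain fatty acids are activated to acyl-CoA, carried into mitochondria by the carnitine shuttle and shortened by repeated rounds of beta oxidation, while peroxisomes shorten very long and branched chains. Electrons leave the first step through the electron transfer flavoprotein, and surplus acetyl-CoA is turned into ketone bodies that other tissues burn. PPAR-alpha, a receptor for fatty acids, switches on many of these genes in fasting and in the suckling period, when milk fat is the main fuel, and it induces the hormone Fgf21 and the secreted protein Angptl4. With its partner RXR it binds direct repeats of the half-site AGGTCA set apart by a single base.

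To show what the promoters of these genes hold at such half-sites, the RefSeq windows of 250 bases before to 50 bases after each start (build GRCm38.p6) were searched on both strands. Windows were matched by symbol for 24 of the 30 members. The full motif AGGTCANAGGTCA was in 0 of these 24 and in 0.0481% of 27025 genes, and the looser AGGNCANAGGNCA, which takes in the first, in 0 of 24 and 0.451%. The half-site AGGTCA was in 5 of 24 members (20.8%) and in 18.1% of all genes, so its share among the members was near that of all genes. The 5 stretches are shown because they hold the search's matches. They read 5′ to 3′ along the gene's own strand, end no later than the start, and have the half-site in capitals, where TGACCT is the half-site on the opposite strand.
Acadvl (chr11:70015480-70015545, minus strand): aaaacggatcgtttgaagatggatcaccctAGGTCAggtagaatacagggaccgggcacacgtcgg
Acadm (chr3:153944857-153944893, minus strand): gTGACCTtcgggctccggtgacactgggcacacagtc
Echs1 (chr7:140116469-140116534, minus strand): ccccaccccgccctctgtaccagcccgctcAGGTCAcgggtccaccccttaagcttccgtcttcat
Cpt1a (chr19:3323177-3323242, plus strand): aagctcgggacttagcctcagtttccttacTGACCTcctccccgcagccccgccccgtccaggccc
Cd36 (chr5:17836089-17836146, minus strand): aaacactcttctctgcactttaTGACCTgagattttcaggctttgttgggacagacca

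Liver exceeded the reference RNA for 29 of the 30 members on every array. The exception was Acads, the short-chain acyl-CoA dehydrogenase, which lay at -0.14 on male control replicate 31. Averaged over the 16 arrays, the log2 ratio was 5.21 ± 0.19 (SD, n = 16) for Acsl1, which activates long-chain fatty acids, and 4.19 ± 0.19 for Acaa2, the last enzyme of the mitochondrial round. Ehhadh, the peroxisomal bifunctional enzyme, was at 4.05 ± 0.28, Ppara at 3.82 ± 0.22, and Bdh1, which makes the ketone body beta-hydroxybutyrate, at 3.65 ± 0.18. At the other end were Acads at 0.89 ± 0.35 and Cd36, a fatty acid uptake protein, at 0.66 ± 0.18. These values depend on how much of each transcript the reference holds and do not rank the genes by their abundance in liver.

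**Figure D1:**
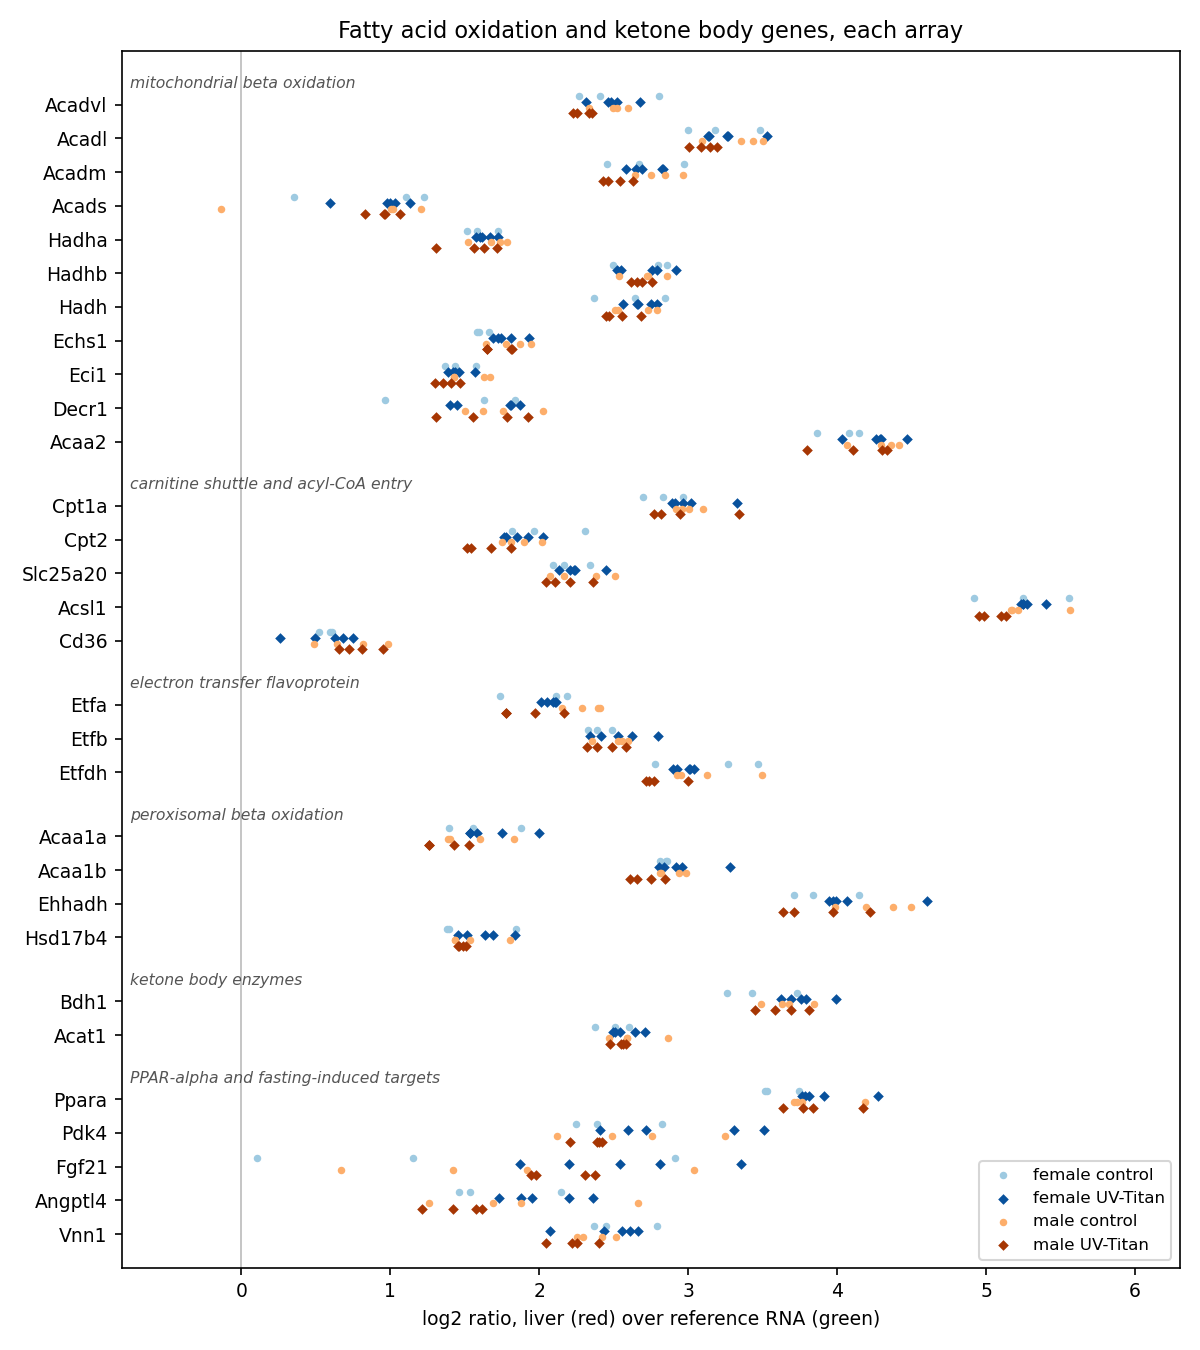
The log2 ratio of liver over reference for each member (rows, by role) on each of the 16 arrays (points; circles are controls and diamonds UV-Titan, blue females and orange to brown males). Fgf21 spans 0.11 to 3.35, while 26 of the 30 members have an SD under 0.3 over the 16 arrays.

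Most members varied little between animals. The SD over the 16 arrays was under 0.3 log2 for 26 of the 30 members, with a median of 0.18. The other 4 were Fgf21 (0.87), Pdk4, the kinase that shuts glucose carbon out of the citric acid cycle (0.41), Angptl4 (0.40) and Acads (0.35). The 4 lowest Acads values were those of male control replicate 31 and of the 3 arrays on slide 5. The level of Fgf21 ran from 0.11 on female control replicate 25 to 3.35 on female UV-Titan replicate 16, and the SD of its reference signal was 0.18.

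In females, no member passed limma's adjustment over all genes, and the differences by ratio were small and mostly upward. The difference, UV-Titan minus control, was above 0 for 23 of 30 members with a median of 0.07 log2 (58.7% of all genes were above 0, with a median of 0.02), but this median was -0.25 in the scaled ratios and -0.03 in the liver channel alone. Leaving out female control replicate 25 gave -0.01 with 15 of 30 higher, and leaving out replicate 35 gave 0.18 with 25 of 30 higher. Adjusted p was at or above 0.05 for all 18707 genes (0%), and 1263 genes (6.75%) had an unadjusted p under 0.05. Among the members 4 of 30 had one, all with higher means: Bdh1, Ppara, Fgf21 and Echs1 (5.48% of all genes had one with a higher mean). With quantile normalisation of the liver signals alone, 14 members were higher and 16 lower (50.2% of all genes were lower). With that channel only centred on each array's median, 28 were higher and the median was 0.23 log2, against 0.14 for all genes, so its direction depended on the scaling. After quantile normalisation no gene passed the adjustment (0%), and the 4 with an unadjusted p under 0.05 were Ehhadh, Cpt2, Etfdh and Hsd17b4, all lower (1.57% of all genes). The 14 hepatocyte markers moved with the ratios: 14 of 14 were higher in UV-Titan females, by a median of 0.55 log2, against 0.04 in the liver channel alone and -0.42 in the reference channel. Their mean deviation from the 16-array mean was -0.59 to -0.33 in female controls and -0.30 to 0.52 in UV-Titan females. Other cell types moved too: 9 of 9 megakaryocyte and platelet genes were higher in UV-Titan females (median 0.53 by ratio, 0.45 in the liver channel), as were 7 of 9 erythroid genes (0.33 and -0.01), 7 of 8 macrophage genes (0.25 and -0.03) and 6 of 7 endothelial genes (0.36 and 0.22). The part of these shifts in the members' ratios was not tested. Within the 3 slides holding both female groups, each with a single pair of animals, the median of the members was -0.07, 0.05 and 0.20 log2.

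In males, most members had lower means after maternal UV-Titan, again with no member past the adjustment. The difference was below 0 for 26 of 30 members by ratio, with a median of -0.13 log2, where 43.2% of all genes were below 0 and their median was 0.02. In the liver channel alone 23 of 30 were below 0 (49.6% of all genes), with a median of -0.09. The median was below 0 under each alternative run, from -0.21 with the scanner's processed signals to -0.08 in the scaled ratios. Within slides 1, 2 and 3, which each had a single pair of males, it was -0.08, -0.08 and -0.09. The pair on slide 2 was control replicate 31 and UV-Titan replicate 5, whose pancreas and muscle genes are described below. No gene of 18707 passed the adjusted threshold (0%), against 926 genes (4.95%) with an unadjusted p under 0.05. Among members 7 of 30 had one, all with lower means: Etfa, Acadm, Etfdh, Ehhadh, Cpt2, Eci1 and Acadl (1.8% of all genes). The smallest adjusted p of a member was 0.95. In the liver channel 7 members also had an unadjusted p under 0.05, all lower (1.72% of all genes). Ehhadh, Cpt2 and Eci1 were among both sets of 7, and the share of all genes in both sets was not counted. In bulk tissue, fewer cells of a type and less RNA per cell cannot be told apart.

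Traces of other tissues differed between male animals, with pancreas and muscle genes high in only a few of them. The 12 measured genes of the exocrine pancreas had a mean deviation of 2.58 on male control replicate 31 and 1.55 on replicate 33, and -0.44 to -0.16 on the other 14 arrays. Of the 14 hepatocyte markers, 10 were lower in UV-Titan males by ratio (median -0.20), while liver and reference channels alone had medians of 0.06 and 0.25. The 11 skeletal muscle genes were at 2.05 on male UV-Titan replicate 5 and at -0.35 to 0.34 elsewhere. All 9 megakaryocyte and platelet genes were higher in UV-Titan males, by a median of 0.19 log2 by ratio and in the liver channel alike. Of the 8 adipocyte genes 4 were measured, of which 3 were higher in UV-Titan males (median 0.17 by ratio and 0.13 in the liver channel). Their mean deviation by ratio was -0.11 to 0.29 in male controls and -0.15 to 0.73 in UV-Titan males. Adipoq, Plin1, Lep and Cfd were not well above background on enough arrays to be tested. Without male controls 31 and 33, the median of the members was -0.10 log2 by ratio and -0.09 in the liver channel, and 24 of 30 members were lower. Without male UV-Titan replicate 5 the ratio median was -0.16. The part of these tissues in the members' differences was not tested beyond these values.

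**Figure D2:**
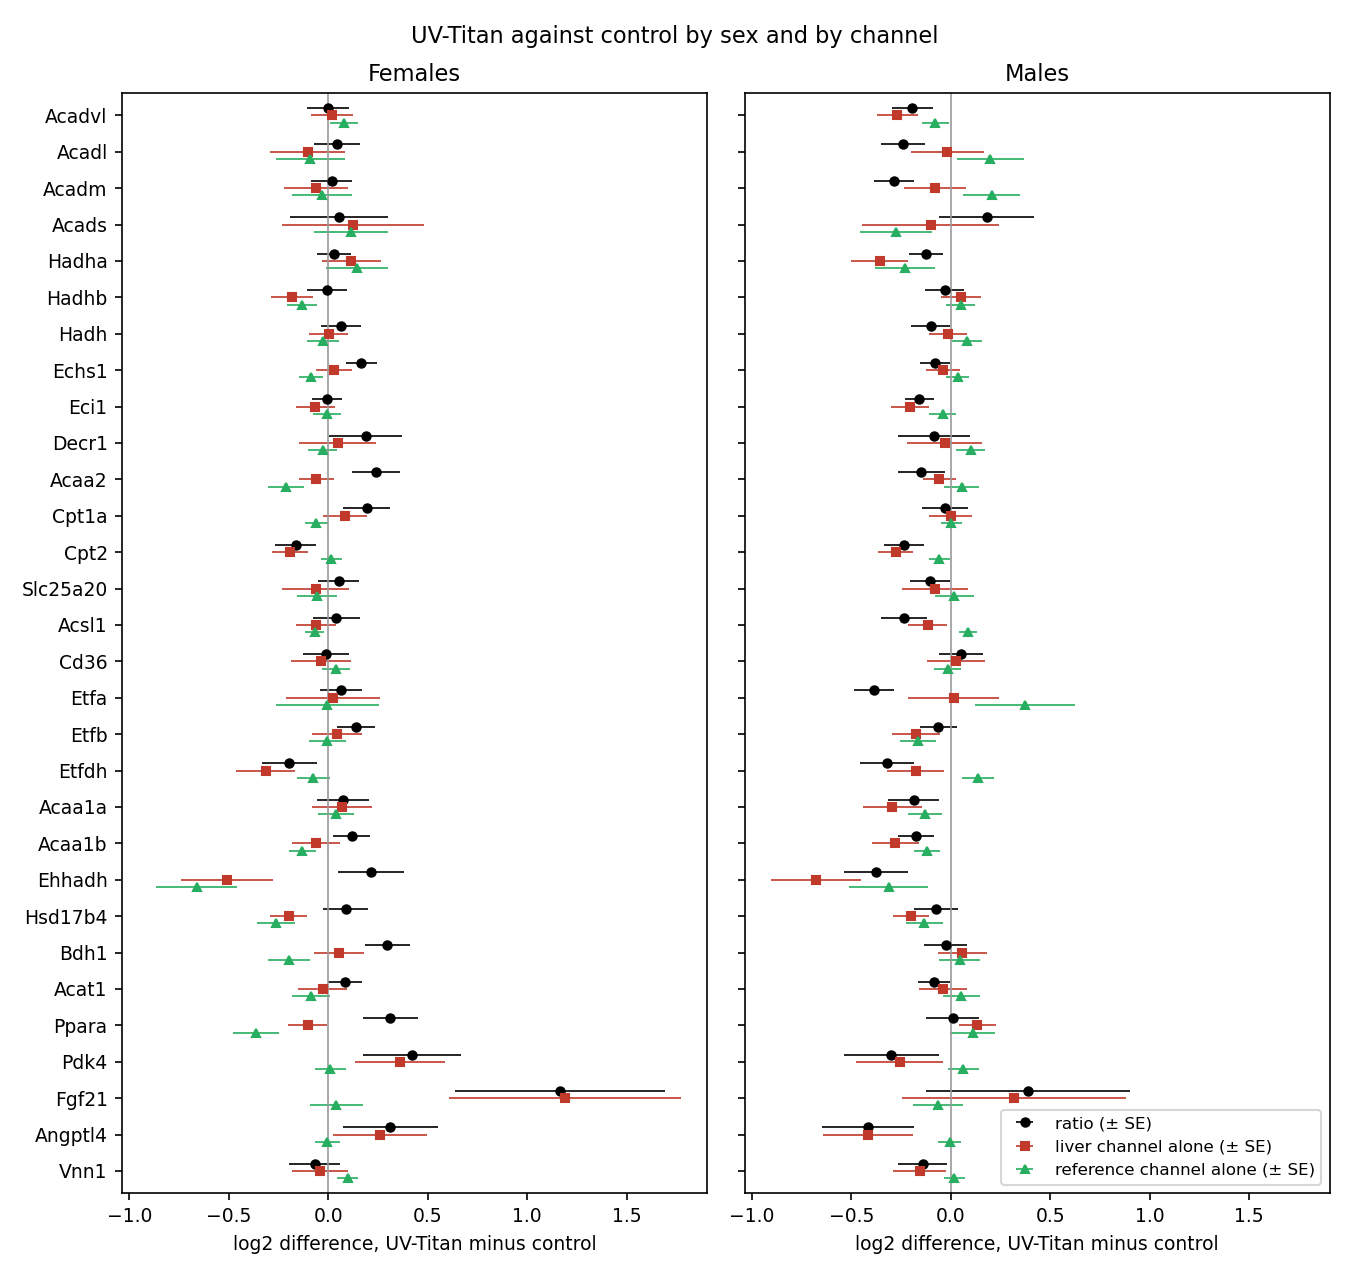
The difference, UV-Titan minus control in log2, for each member in females (left) and males (right), by ratio (black circles), liver channel alone (red squares) and reference channel alone (green triangles), with bars of 1 SE. In males 26 of 30 ratios lie below 0, and in females 23 of 30 lie above 0, a direction that turns in the scaled ratios and in the median of the liver channel as plotted, quantile-normalised.

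Values for single animals follow, as log2 ratios of liver over reference. Each list is in the order of replicates 25, 35 and 40 for female controls, 2, 8, 10, 16 and 21 for female UV-Titan, 31, 33, 41 and 43 for male controls, and 3, 4, 5 and 17 for male UV-Titan.

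Of the mitochondrial enzymes, 10 of 11 had lower means by ratio in UV-Titan males and 8 of 11 higher means in UV-Titan females, where scaled ratios turned the direction. Acadm, the medium-chain acyl-CoA dehydrogenase, was at 2.45, 2.97 and 2.67 in female controls, and at 2.65, 2.82, 2.69, 2.83 and 2.58 in exposed females. Male controls had 2.84, 2.96, 2.64 and 2.75, and UV-Titan males 2.54, 2.46, 2.63 and 2.43. By ratio every UV-Titan male therefore lay below every control male (at most 2.627 against at least 2.640), while the female groups overlapped. In the liver channel alone the male groups overlapped, at 14.74 to 15.13 in controls and 14.60 to 15.26 after UV-Titan. The male difference was -0.28 ± 0.10 log2 (SE; limma adjusted p = 0.95), with the liver channel at -0.08 and the reference channel at 0.21, and it was -0.18 without male controls 31 and 33. By ratio 2 members, Acadm and Acsl1, had male groups that did not overlap with UV-Titan lower (1.08% of all genes). Both overlapped in the liver channel.

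Hadha, the alpha subunit of the trifunctional protein that takes long chains through the later steps, was at 1.59, 1.52 and 1.72 in female controls and 1.67, 1.72, 1.58, 1.61 and 1.60 in exposed females. In males it was at 1.68, 1.78, 1.52 and 1.73 in controls and 1.56, 1.31, 1.71 and 1.63 after UV-Titan. The male groups overlapped by ratio and not in the liver channel alone, where the difference was -0.36 ± 0.14 log2 and that of the reference channel of the same probe was -0.23. The other 2 Hadha probes gave 0.06 and -0.02 by ratio in males, against -0.12 for the probe used. Echs1, the enoyl-CoA hydratase, was at 1.59, 1.66 and 1.58 in female controls and at 1.69, 1.93, 1.72, 1.81 and 1.74 in UV-Titan females, so that these groups did not overlap by ratio. Its male values were 1.87, 1.78, 1.64 and 1.95 in controls and 1.81, 1.65, 1.82 and 1.65 with UV-Titan. The female difference was 0.17 ± 0.08 log2 (limma adjusted p = 0.719), 0.03 in the liver channel alone and -0.09 in the scaled ratios.

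Eci1, an enoyl-CoA isomerase for unsaturated chains, had 1.36, 1.43 and 1.58 in female controls and 1.39, 1.57, 1.46, 1.43 and 1.42 in exposed females, which overlapped. Its male values were 1.43, 1.67, 1.43 and 1.63 in controls and 1.47, 1.41, 1.35 and 1.30 with UV-Titan. The male difference was -0.16 ± 0.07 log2 by ratio and -0.20 ± 0.10 in the liver channel (limma adjusted p = 0.95 and 1.00). Acaa2 was at 3.86, 4.14 and 4.08 in female controls and 4.29, 4.47, 4.29, 4.03 and 4.26 in UV-Titan females, and at 4.36, 4.29, 4.07 and 4.41 in male controls and 4.34, 4.11, 4.30 and 3.80 in UV-Titan males. Its female difference of 0.24 ± 0.12 was -0.06 in the liver channel, -0.38 in the scaled ratios and 0.16 without female control replicate 25. The other 6 mitochondrial enzymes were Acadvl, Acadl, Acads, Hadhb, Hadh and Decr1, with female differences between -0.01 and 0.19 and male differences between -0.24 and 0.18. Decr1, which handles double bonds, ran from 0.97 to 1.84 in female controls, and its second probe gave -0.01 in females against 0.19 for the probe used, which turned to -0.07 without female control replicate 25. The male difference of Acads, 0.18, turned to -0.12 without male control replicate 31.

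Of the 5 uptake, activation and shuttle genes, 4 were lower in UV-Titan males by ratio. Cpt1a, the gatekeeper of the carnitine shuttle, was at 2.70, 2.83 and 2.96 in female controls and 3.02, 3.33, 2.97, 2.89 and 2.91 in UV-Titan females. Male controls had 3.01, 3.10, 2.92 and 2.96, and UV-Titan males 2.94, 2.77, 3.34 and 2.82. The groups overlapped in both sexes, and the differences were 0.19 ± 0.12 in females and -0.03 ± 0.12 log2 in males, the first of them 0.12 without female UV-Titan replicate 8 or female control replicate 25. Cpt2, the inner-membrane enzyme of the same shuttle, was at 1.82, 2.31 and 1.97 in female controls and 1.92, 2.03, 1.85, 1.76 and 1.77 with UV-Titan. In males its values were 1.75, 2.02, 1.90 and 1.81 in controls and 1.68, 1.52, 1.54 and 1.81 after exposure. The difference in the liver channel was -0.19 ± 0.09 log2 in females and -0.28 ± 0.09 in males. By ratio it was -0.16 ± 0.10 and -0.23 ± 0.10 (limma adjusted p = 0.833 and 0.95). Leaving out female control replicate 35 moved the female ratio difference to -0.03, and leaving out replicate 25 moved it to -0.27. Cpt2 and Ehhadh were the 2 members with an unadjusted p under 0.05 in the liver channel of both sexes and in the male ratio. The share of all genes meeting these criteria together was not counted, so this is a description only.

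With one array left out at a time, an alternative added after the data were seen, Cpt2 in the liver channel was between -0.31 and -0.23 log2 in males and between -0.25 and -0.08 in females, where -0.08 was the value without female control replicate 35. Cd36 was at 0.52, 0.59 and 0.61 in female controls and 0.63, 0.50, 0.68, 0.26 and 0.75 in UV-Titan females. Male controls had 0.49, 0.99, 0.82 and 0.64, and UV-Titan males 0.81, 0.66, 0.95 and 0.72. Within each sex the UV-Titan and control groups overlapped, and the differences were -0.01 ± 0.12 in females and 0.05 ± 0.11 log2 in males. By ratio Acsl1 did not overlap in males, with 5.16 to 5.56 in controls and 4.95 to 5.14 after UV-Titan. These groups did overlap in the liver channel. The difference by ratio was -0.23 ± 0.11 (limma adjusted p = 0.95), or -0.14 without male control replicate 33. Slc25a20, the carnitine-acylcarnitine carrier, differed by 0.05 ± 0.10 in females and -0.10 ± 0.10 in males.

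All 3 electron transfer genes were lower in UV-Titan males by ratio, and 2 of 3 in the liver channel. Etfa, the alpha subunit of the flavoprotein, was at 1.73, 2.18 and 2.11 in female controls and 2.05, 2.11, 2.09, 2.01 and 2.11 in exposed females. In males it was at 2.29, 2.40, 2.15 and 2.41 in controls and 2.17, 1.97, 1.78 and 1.78 with UV-Titan, groups that overlapped through control replicate 41 and UV-Titan replicate 3. The male difference, which had the smallest p of the members, was -0.39 ± 0.10 log2 (limma adjusted p = 0.95). The liver channel alone gave 0.02 ± 0.23 and the reference channel 0.37 ± 0.25. Etfdh, which passes these electrons to ubiquinone, was at 2.78, 3.47 and 3.26 in female controls and 3.01, 2.92, 3.01, 2.90 and 3.04 in UV-Titan females. It was at 2.95, 3.49, 2.92 and 3.13 in male controls and 3.00, 2.77, 2.72 and 2.74 in UV-Titan males, with a difference of -0.32 ± 0.13 (limma adjusted p = 0.95), or -0.20 without male control replicate 33. A second Etfdh probe gave -0.21 in males and, with the opposite sign to the first, 0.14 in females. Etfb differed by 0.14 ± 0.10 in females and -0.06 ± 0.09 in males.

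In the peroxisome all 4 genes were lower in UV-Titan males, by ratio and in the liver channel. Ehhadh was at 3.71, 4.14 and 3.84 in female controls and 4.07, 4.60, 3.99, 3.94 and 3.97 in UV-Titan females. Male controls were at 4.50, 4.37, 4.19 and 3.98, and UV-Titan males at 3.97, 3.71, 4.22 and 3.64. The male groups overlapped by ratio, with a difference of -0.38 ± 0.16 log2 (limma adjusted p = 0.95). They did not overlap in the liver channel, at -0.68 ± 0.22 (limma adjusted p = 1.00). In females the ratio differed by 0.22 ± 0.16 and the liver channel by -0.51 ± 0.23, or -0.28 without female control replicate 35. The female ratio difference was 0.34 without that array, 0.12 without female control replicate 25 and 0.094 without female UV-Titan replicate 8. The reference signal of this probe also differed, by -0.66 ± 0.20 in females and -0.31 ± 0.20 in males. Without male controls 31 and 33 the male difference was -0.20 by ratio and -0.42 in the liver channel.

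Acaa1a and Acaa1b, the peroxisomal thiolases, are near-identical copies whose probes may share signal, so each is uncertain. Acaa1b was at 2.85, 2.86 and 2.81 in female controls and 2.92, 3.28, 2.84, 2.96 and 2.80 in UV-Titan females. It was at 2.81, 2.98, 2.94 and 2.82 in male controls and at 2.75, 2.61, 2.84 and 2.66 after exposure. The male difference was -0.17 ± 0.09 by ratio and -0.28 ± 0.12 in the liver channel. Acaa1a had 1.39, 1.88 and 1.55 in female controls and 1.58, 2.00, 1.75, 1.54 and 1.54 in UV-Titan females, against 1.40, 1.83, 1.39 and 1.60 in control males and 1.53, 1.26, 1.43 and 1.26 in UV-Titan males. Its UV-Titan and control groups overlapped within each sex, with differences of 0.07 ± 0.13 and -0.19 ± 0.13. The male one was -0.094 without male control replicate 33. Hsd17b4, the second peroxisomal bifunctional enzyme, differed by -0.20 ± 0.09 in the liver channel of each sex (-0.11 in females without control replicate 35, and -0.12 in males without controls 31 and 33) and by 0.09 ± 0.11 and -0.07 ± 0.11 by ratio. In the male liver channel 5 of the 30 members had groups that did not overlap, all lower: Ehhadh, Cpt2, Acaa1b, Acadvl and Hadha (0.898% of all genes). In the female liver channel 0 members did (1.28% of all genes for lower and 1.08% for higher).

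Both ketone body enzymes were higher in UV-Titan females by ratio. In UV-Titan males the ratio differences were -0.03 for Bdh1 and -0.09 for Acat1. Among the alternatives run these ranged from -0.09 to 0.06 and from -0.14 to 0.01, and the female ones also changed sign. Bdh1 was at 3.26, 3.73 and 3.43 in female controls and 3.79, 3.99, 3.69, 3.63 and 3.75 in UV-Titan females. Male controls had 3.84, 3.49, 3.63 and 3.68, and UV-Titan males 3.69, 3.58, 3.81 and 3.45. Only control replicate 35 reached the range of the exposed females, and the male groups overlapped throughout. The female difference was 0.30 ± 0.11 log2 (limma adjusted p = 0.684), a second probe gave 0.35, it was 0.19 without female control replicate 25, and the liver channel alone gave 0.05 and the scaled ratios -0.23. Acat1, the mitochondrial thiolase used in ketone body synthesis, differed by 0.08 ± 0.08 in females and -0.09 ± 0.08 in males.

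Of the 5 members around PPAR-alpha, 4 were higher in UV-Titan females and 3 lower in UV-Titan males by ratio. Fgf21 had the widest range over animals. It was at 0.11, 1.15 and 2.91 in female controls and 2.20, 2.81, 1.87, 3.35 and 2.54 in UV-Titan females. Male controls had 3.04, 1.92, 1.42 and 0.67, and UV-Titan males 2.31, 2.37, 1.98 and 1.95. Controls of both sexes held the lowest animals, and all 9 UV-Titan animals lay between 1.87 and 3.35, with overlap in both sexes. The female difference was 1.17 ± 0.53 log2, a 2.24-fold higher mean (limma adjusted p = 0.711), and the liver channel gave 1.19 ± 0.58. It was 0.52 without female control replicate 25, 1.93 without replicate 40 and 0.036 with array weights. In males it was 0.39 ± 0.51, 0.025 without male control replicate 43, 0.81 without 31 and 1.10 without both 31 and 33. A second Fgf21 probe gave 0.85 and 0.20.

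Ppara, the receptor gene itself, was at 3.52, 3.74 and 3.53 in female controls and 3.91, 4.27, 3.78, 3.81 and 3.76 in UV-Titan females. Male controls had 4.18, 3.73, 3.76 and 3.71, and UV-Titan males 3.84, 3.77, 4.17 and 3.64. The female groups did not overlap by ratio, and the difference was 0.31 ± 0.14 log2 (limma adjusted p = 0.706). It was -0.10 ± 0.10 in the liver channel, -0.36 ± 0.12 in the reference channel and -0.26 in the scaled ratios. By ratio, Ppara and Echs1 were the 2 members whose female groups did not overlap (3.23% of all genes with UV-Titan higher).

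Pdk4 was at 2.24, 2.39 and 2.82 in female controls and 2.72, 3.31, 3.51, 2.41 and 2.60 in UV-Titan females. In males it was at 2.49, 3.25, 2.12 and 2.75 in controls and 2.40, 2.21, 2.42 and 2.38 with UV-Titan. The differences were 0.42 ± 0.25 in females and -0.30 ± 0.24 log2 in males, with overlap in both sexes. By ratio, leaving out male control replicate 33 gave -0.10 in males, leaving out replicate 41 gave -0.48, and leaving out both 31 and 33 gave -0.082. The female ratio difference was 0.27 without UV-Titan replicate 10. In the male liver channel the Pdk4 difference was -0.26. It was -0.062 without control replicate 33, -0.45 without replicate 41 and 0.015 without both 31 and 33. Angptl4, an inhibitor of lipoprotein lipase, was at 1.53, 1.46 and 2.15 in female controls and 1.95, 2.20, 2.36, 1.73 and 1.88 in UV-Titan females. In males it was at 1.88, 2.66, 1.26 and 1.69 in controls and 1.57, 1.21, 1.62 and 1.42 with UV-Titan. Its differences were 0.31 ± 0.24 and -0.41 ± 0.23, with near-equal values in the liver channel (0.26 and -0.42). The male difference by ratio was -0.15 without male control replicate 33 and -0.016 without both 31 and 33. The female one was 0.18 without control replicate 35 and 0.53 without replicate 40. Vnn1, a pantetheinase that PPAR-alpha induces in mouse liver, was at 2.37, 2.79 and 2.45 in female controls and 2.08, 2.56, 2.67, 2.43 and 2.61 in UV-Titan females, and at 2.25, 2.42, 2.51 and 2.29 in male controls and 2.22, 2.25, 2.05 and 2.40 in UV-Titan males. All its groups overlapped, with differences of -0.07 ± 0.13 and -0.14 ± 0.12.

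**Figure D3:**
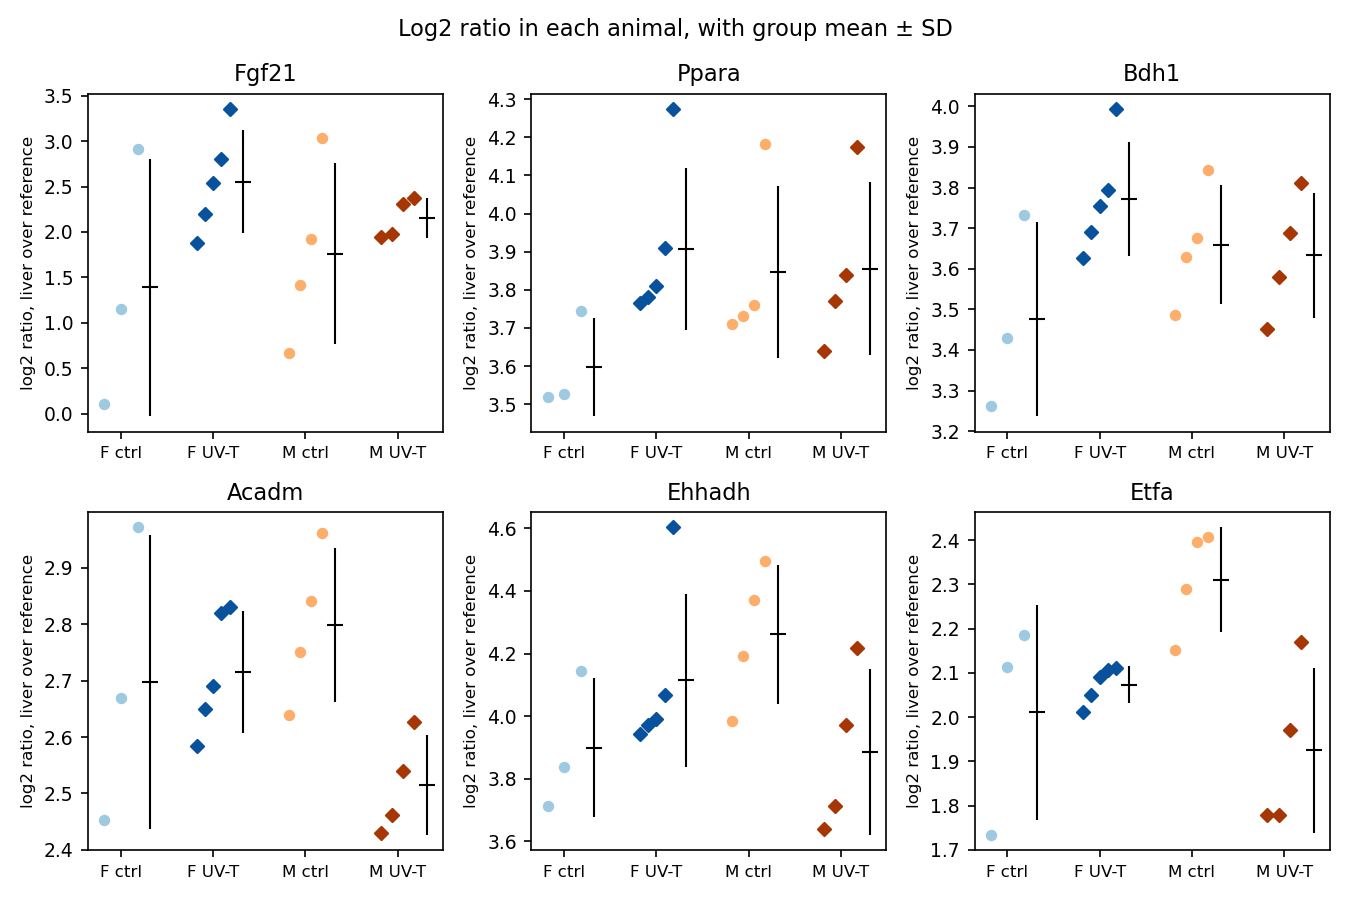
The log2 ratio of liver over reference in each animal for 6 members, by group (F female, M male, ctrl control, UV-T UV-Titan), with a horizontal mark and bar for the group mean ± SD beside the points; the y axes do not start at 0 and differ between panels. Acadm in UV-Titan males lies at 2.43 to 2.63, below all male controls (lowest 2.64), though these groups overlap in the liver channel. The Fgf21 values of the female controls run from 0.11 to 2.91.

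The difference between the sexes in their response was tested as the female effect minus the male effect. It was above 0 for 28 of 30 members, with a median of 0.23 log2 (52.5% of all genes were above 0), but the median was 0.074 in the liver channel alone (23 of 30 above 0, against 50.2% of all genes) and turned to -0.22 in the scaled ratios. No gene passed limma's adjustment by either measure (0%), with 805 genes (4.3%) at an unadjusted p under 0.05. Among members 6 had one, all above 0: Etfa, Ehhadh, Echs1, Acaa2, Acaa1b and Angptl4 (2.58% of all genes). Etfa had 0.45 ± 0.15, Ehhadh 0.59 ± 0.23 and Echs1 0.24 ± 0.11 log2 (limma adjusted p = 0.979 for each), against 0.01, 0.17 and 0.07 in the liver channel. For Angptl4 the value was 0.73 ± 0.33, and 0.68 ± 0.33 with the liver channel alone. Without male control replicate 33 these were 0.46 and 0.42, and without both 31 and 33 they were 0.33 and 0.27.

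Between males and females over both treatments, no member was among the 9 genes (0.0481%) past limma's adjustment by ratio. The members with the smallest p by ratio were Cpt2 (-0.20 ± 0.07, males lower), Cd36 (0.19 ± 0.08, males higher), Vnn1 (-0.20 ± 0.09) and Acaa1a (-0.18 ± 0.09), each with an adjusted p of 0.977. By ratio 13 members were higher in males and 17 lower (51.5% of all genes), and in the liver channel 6 were higher and 24 lower, with a median of -0.08 log2 (52.6% of all genes were lower), a direction that turned to 18 higher and a median of 0.04 when that channel was only median-centred. Averaged over both sexes, UV-Titan against control gave 12 members higher and 18 lower by ratio (39.3% of all genes were lower), with a median of -0.02. In the liver channel 8 were higher and 22 lower (50.2% of all genes), with a median of -0.07, which turned to 21 higher and a median of 0.03 with median-centring. No gene passed by either measure (0%). The members with the smallest p in the liver channel were Cpt2 at -0.23 ± 0.06 and Ehhadh at -0.59 ± 0.16 (limma adjusted p = 0.97 and 0.981). By ratio the smallest limma adjusted p of a member was 0.567.

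Other genes of the same pathways, from lists that exclude the members, also had 0 genes past the adjusted threshold in any of the 5 comparisons. Of 25 other genes listed around mitochondrial oxidation, uptake and activation genes among them, 17 were lower in UV-Titan males (median -0.05). The smallest p belonged to Acot2, a mitochondrial acyl-CoA thioesterase, at -0.59 ± 0.17, then Acad11 (-0.28 ± 0.14) and Acsl3 (-0.20 ± 0.10). In females 15 of 25 were higher (median 0.06). The smallest p were those of Slc27a5 (0.39 ± 0.13) and Slc27a2 (0.44 ± 0.16), of the fatty acid transport protein family, and of Pccb of propionate breakdown (0.21 ± 0.08). In the liver channel Slc27a5 and Slc27a2 had 0.15 and 0.13. Of 21 other peroxisomal genes, 16 were lower in UV-Titan males (median -0.14), among them the transporter Abcd3 (-0.27 ± 0.10), Amacr (-0.19 ± 0.09) and Eci2 (-0.21 ± 0.11). In females 15 of 21 were higher by ratio (median 0.07), and the smallest p were those of Decr2 (0.24 ± 0.12), Acox2 (0.18 ± 0.09) and Cat, catalase (-0.16 ± 0.09). In the liver channel these genes differed by 0.01, 0.002 and -0.13, and in the reference channel by -0.17, -0.12 and 0.08.

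Of 8 measured ketone body genes outside the members, 4 were higher in UV-Titan females and 5 in UV-Titan males. By ratio, Aacs, which activates acetoacetate in the cytosol, differed by 0.19 ± 0.15 log2 in females and the monocarboxylate transporter gene Slc16a1 by -0.16 ± 0.13. In the liver channel these were 0.15 and -0.03. The smallest p in males were those of Oxct1 (0.20 ± 0.10), the enzyme that lets other tissues burn ketone bodies, Bdh2 (0.22 ± 0.13) and Slc16a7 (-0.24 ± 0.16).

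Of 29 measured PPAR-alpha targets and regulators outside the members, 22 were lower in UV-Titan males by ratio (median -0.20) and 24 in the liver channel. Acot1, a cytosolic acyl-CoA thioesterase, was at 1.17, 2.87, 1.63 and 1.37 in male controls and 0.84, -0.02, 0.95 and 0.72 in UV-Titan males, without overlap. Its difference was -1.14 ± 0.33 log2 (limma adjusted p = 0.95), and the same in the liver channel. The highest control value, 2.87, was that of replicate 33, which was also high in pancreas genes. Ppargc1a, a coactivator of PPAR-alpha, differed by -0.56 ± 0.24 and Retsat by -0.33 ± 0.15. In females 23 of 29 were higher by ratio (median 0.16) and 11 in the liver channel. Hilpda, a lipid droplet protein, differed by 0.53 ± 0.16 and by 0.51 in the liver channel, G0s2, an inhibitor of the lipase ATGL, by 0.50 ± 0.15 and 0.85, and Cyp4a14 by 0.34 ± 0.16 and -0.10.

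Pdk4 and Angptl4 went together between animals. After each group's mean was subtracted, their log2 ratios over the 16 animals had Pearson's r = 0.88 (permutation within groups, two-sided p = 0.00025, adjusted p = 0.003 over 12 genes) and Spearman's rho = 0.79 (permutation p = 0.00293, adjusted p = 0.0313). They lay on the same side of their group means in 13 of 16 animals. Without female UV-Titan replicate 10 and male control replicate 33, the 2 farthest from the median of Pdk4, r was 0.83, and in the liver channel alone it was 0.86 (permutation adjusted p = 0.0131). With slide means subtracted as well, r was 0.52 (permutation adjusted p = 0.425), so the relation did not pass once slides were taken out. Relative to their groups, the 3 animals of slide 4 were the highest for Angptl4 and were among the 4 highest for Pdk4. No slide holds the 6 animals a correlation within it would need.

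Of the other 11 genes set against Pdk4, 0 passed by Pearson's r, and Acsl1 passed by Spearman's rho alone (rho = 0.62, permutation adjusted p = 0.0313; r = 0.53, permutation adjusted p = 0.129). Cpt1a had r = 0.50 (permutation adjusted p = 0.0706) and passed in the liver channel alone (r = 0.60, permutation adjusted p = 0.0339). Fgf21 did not go with Pdk4 (r = 0.03, permutation adjusted p = 0.918).

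**Figure D4:**
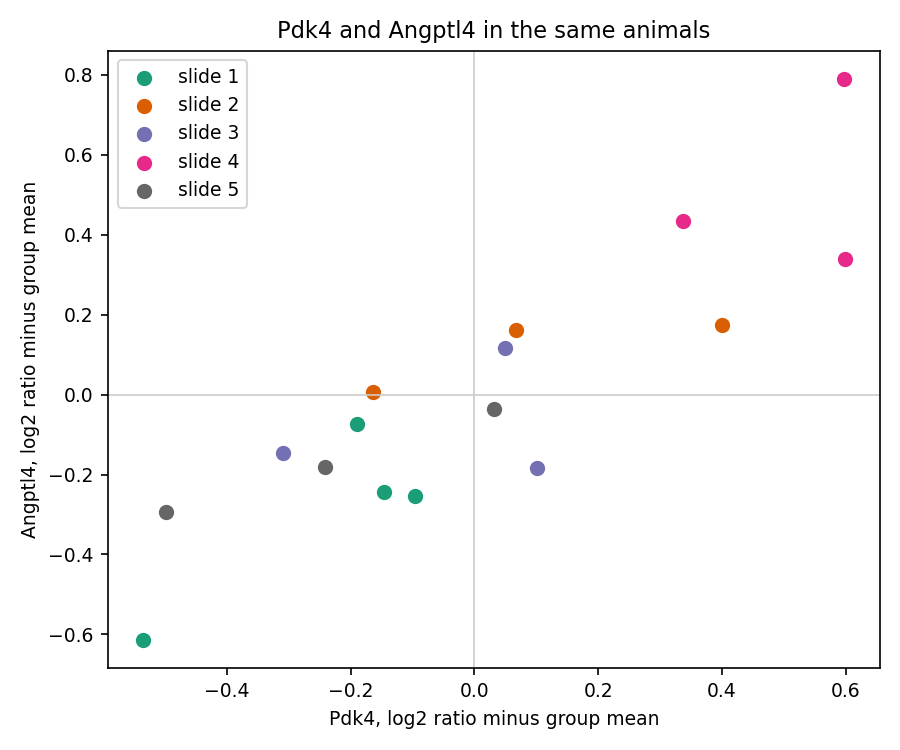
Pdk4 (x axis) against Angptl4 (y axis), each as the log2 ratio minus the animal's group mean, for 16 animals coloured by slide. The points rise together (r = 0.88), with the 3 animals of slide 4 toward the upper right; r is 0.52 once slide means are subtracted.

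Slide 5 stood apart for many genes of the array, and for the members at shares near those of all genes in the liver channel and by ratio. It held female control replicate 25, female UV-Titan replicate 16 and male UV-Titan replicate 17, and no male control. In the reference channel, which carried reference RNA on every array, its 3 arrays did not overlap with the other 13 for 12 of 30 members, 7 of them higher and 5 lower, where 29.9% of all genes did the same. In the liver channel this held for 5 members (15.3% of all genes) and by ratio for 1, Acaa2 (2.61%).

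Etfa was brighter on slide 5 by 0.92 log2 in the reference channel and 0.70 in the liver channel, Acadl by 0.62 and 0.55, and Acadm by 0.49 and 0.41. Hadha was dimmer by -0.57 and -0.50. Acads was dimmer by -0.64 in the reference channel, and in the liver channel it was low on the same 3 arrays and on male control replicate 31. With slide as a block, the male difference was -0.32 for Etfa and -0.25 log2 for Acadm.

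**Figure D5:**
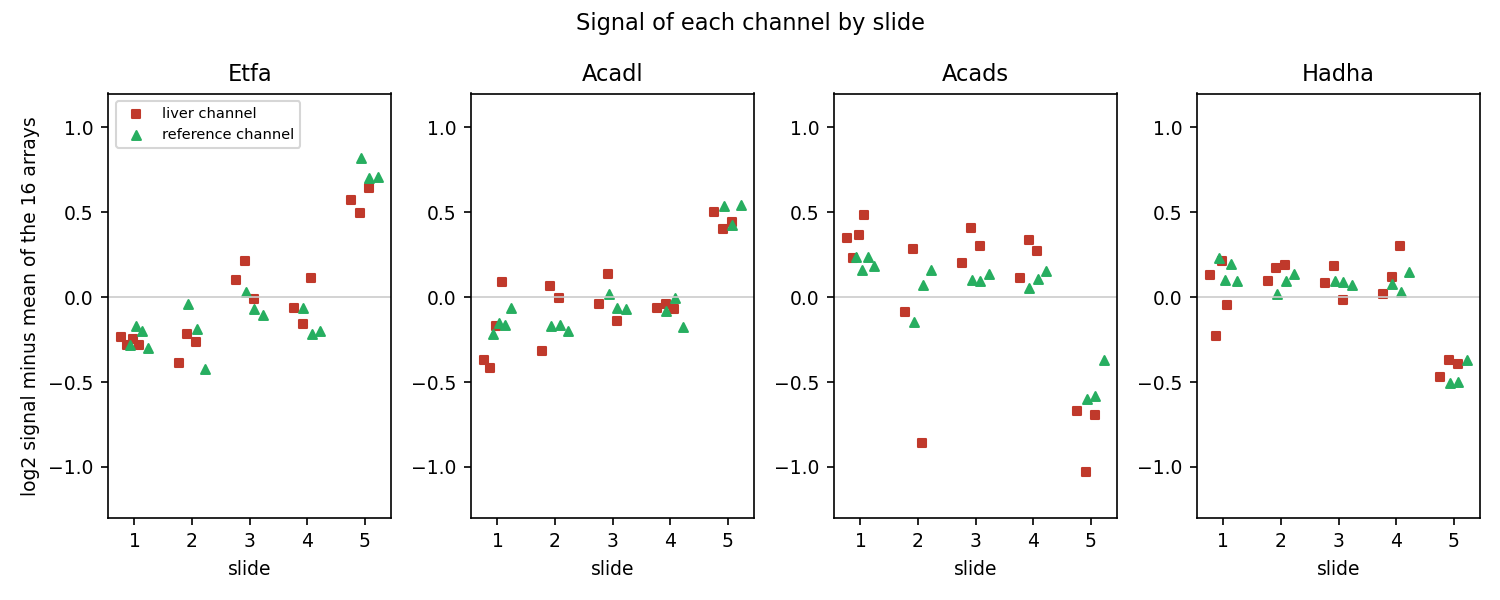
The log2 signal of Etfa, Acadl, Acads and Hadha minus its 16-array mean (y axis) by slide (x axis), for the liver channel (red squares) and the reference channel (green triangles), quantile-normalised between arrays. On slide 5 both channels of Etfa and Acadl are high and both channels of Hadha are low.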

How the data were processed

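The members and gene lists were chosen with earlier results of these data known. Liver RNA of 16 animals was hybridised against universal mouse reference RNA to Agilent arrays of 45018 spots. The authors deposited scanned mean spot and background intensity values of both channels, uncorrected per the file headers, and processed intensity values that Agilent Feature Extraction (version 9.5.3.1, per the labels' protocol) had background-subtracted, detrended and dye-normalised. They also deposited a table of log2 ratios. Each of its columns went with that array's loess-normalised log2 ratio of red over green (r 0.992 to 0.994), which gave scale and direction, its column medians were -0.0450 to -0.0375, and its normalisation is not given in the sources used here.

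Here limma 3.58.1 (R 4.3.3) applied normexp background correction with an offset of 50 and loess within each array, control spots having weight 0. Outlier spots (90 to 135 per array) were left out and 0 were saturated. Tested genes had at least 1 probe flagged well above background in red on 3 or more arrays, and the one with the highest mean red signal stood for the gene. Gene symbols came from RefSeq accessions for 12166 of the 18707 genes, from current symbols or synonyms for 1872 and 945, and 3724 kept the file's name. The liver and reference channels alone were quantile-normalised. One limma model with 4 group means gave 5 two-sided contrasts, with Benjamini-Hochberg adjustment over all genes at 0.05. A lower or higher mean without a test passed is a value only. The script was tested on simulated data. Correlations used 100000 permutations within groups. All 30 members are named. Values in every sample are given for the 6 members with the smallest unadjusted p in each sex, the 4 in male against female, the 3 in the interaction and 11 named ones; of each other list, the 3 with the smallest p in each sex are named, except for 1 gene that is not reported here.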

Additional observations from a re-analysis of the deposited data

Results flagged for a closer look

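Dixon's test was run on 90 sets of values, those of the 30 members in the 3 groups of 4 or 5 animals, and 9 values stood far from the other animals of their group. Chance alone does so in about 1 in 20 groups tested. Female UV-Titan replicate 8 was the highest of its group for Cpt1a (3.33), Ehhadh (4.60) and Ppara (4.27). The liver channel of Cpt1a and Ehhadh was also the highest of the group there, and that of Ppara was not. Acads was lowest on male control replicate 31 (-0.14, against 1.00 to 1.21) and on female UV-Titan replicate 16 (0.59, against 0.98 to 1.13), in the liver channel too. Male control replicate 31, which carried pancreas transcripts, was also the highest for Ppara (4.18).

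Acsl1 was highest on male control replicate 33 (5.56) and on female UV-Titan replicate 10 (5.40), both on slide 4 and both highest in the liver channel too. Pdk4 was lowest on male UV-Titan replicate 4 (2.21), where the other 3 animals lay between 2.38 and 2.42, and its liver channel was not the lowest there. No member's female and male effects differed past limma's adjusted threshold.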

How the results depend on the processing

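No paired analysis was possible because the groups share no replicate numbers, so slide was used as a block instead and within-slide medians are given above. No member passed limma's adjusted threshold in any comparison under any alternative run, and no gene of the other pathway lists did. Scaled ratios moved the median of the members to -0.25 in females, -0.17 over both sexes, -0.22 for the female minus male effect and -0.24 for male against female; by construction they stretch female control replicate 25. The female minus male median was 0.074 in the liver channel and 0.42 when that channel was only median-centred, a setting that shifts the median of all genes in females by 0.14 and in the interaction by 0.16. Leaving out 1 array gave member medians of -0.01 to 0.18 in females, -0.17 to -0.11 in males, -0.06 to 0.01 over both, 0.14 to 0.31 for the interaction and -0.07 to 0.02 between the sexes. Genes called in females numbered 83 with array weights and 1 with slide or scan day as a block, and 0 to 1 with 1 array left out. Over both sexes they numbered 46 with array weights, 10 with scan day and 1 with slide as a block, 1 without background correction, and 0 to 11 with 1 array left out. In males it was 1 with processed signals, and 3 genes were called between the sexes when a probe had to be well above background on all 16 arrays. For Pdk4, 1 of 12 genes passed, 2 in the liver channel, 0 with slide means subtracted and 1 to 2 with 1 animal left out. The cause was not tested. In the liver channel the probes used for the members were well above background on all 16 arrays. In the reference channel the probe used for Decr1 was so on 15 arrays and its second probe on 0.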
